A study of Trichoderma reesei QM6a with 24 samples.

Results

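Short protein-coding genes are easily left aside in expression studies, although fungal cells devote many transcripts to small proteins. The 104 gene models described here are the abundant short models of *Trichoderma reesei*. They were chosen by 2 values: a length of at most 300 bases in the deposited count table, and a mean of at least 50 CPM (counts scaled to one common library total, as in every CPM value below) in at least 1 of the 8 groups. The table holds 10879 models, 881 of them no longer than 300 bases, so that 11.8% of the short models were selected. Of the 9998 longer models, 47.2% reach the same level. Since the members were selected on their level, that level is given as a description. Lengths of 94.7% of all models, and of 101 of the 104 members, are multiples of 3. They are taken as coding lengths, so the members would encode small proteins.

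Mycelium was grown on cellulose in minimal medium at 28 °C. Lighting was constant light or constant darkness, and the medium did or did not hold 5 mM L-methionine. Both the deletion mutant QM6aΔ72004, which the series title ties to a G-protein coupled receptor, and its wild type QM6a (WT) were grown in each of these 4 conditions. The 8 groups, with 3 libraries of total RNA each, were the mutant in light with methionine, the mutant in light, the WT in light with methionine, the WT in light, and the same 4 in darkness. Separate cultures are not named for the libraries of a group, nor is the number of clones behind the mutant, so p-values reflect a spread between libraries that could be technical alone. Light and dark libraries carry separate runs of library numbers, so that lighting and library run cannot be told apart. The sample labels give 72 h of growth and the growth protocol 96 h.

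Library totals ran from 13210988 to 21224989 counts, and 3 counts in a library correspond to 0.141 to 0.227 CPM. The model linked to the deleted gene, TrE0303W, had 0 counts in each of the 12 mutant libraries and 86 to 579 counts in each of the 12 WT libraries. Some libraries stand apart among the members. Replicate 3 of the WT in light differed by more than 2-fold from both of its fellows in 14 members, replicate 1 of the mutant in light with methionine in 12, and replicate 2 of the mutant in light in 9. Several fold changes that these libraries move are given with and without them.

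Small proteins of fungi include secreted hydrophobins, which assemble into a water-repellent layer on hyphae and spores, many subunits of the ribosome, and small partners of larger complexes such as G-protein gamma subunits and histones. Genes for ribosomal proteins are known to be expressed together and at high levels in growing cells. *T. reesei* is a cellulase producer in which light and darkness are known to alter metabolism, secreted enzymes and spore formation. A locus tag could be linked to 66 of the 104 members, and 11 of these carry a gene symbol. The other 38 are named by their model alone, and no role is given for a member without a symbol.

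The members were between 67 and 300 bases long, with a median of 228. A single exon made up 36 of them, while 45 had 2 exons, 16 had 3 and 7 had 4. None overlapped another model. In their highest group the members reached a median of 131 CPM and the longer models at the same limit 145 CPM. Per kilobase of length the medians were 623 CPM for the members and 93.6 CPM for the longer models, a difference that the length limit itself helps to set. At the edge of the selection, TrD0804C peaked at 50.1, TrA0928W at 51.3 and TrE0215C at 51.8 CPM, while TrF0344W (49.5 CPM), TrF0195W (49.3 CPM) and TrD1250C (48.8 CPM) were just outside. On length, TrC0951C and TrA1133C (300 bases each) and TrA1144W (297 bases) were just inside and TrA0172W, TrC0585C and TrD0248C (306 bases each) just outside.

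Together the 104 members took 1.88 ± 0.175% of all counts in the mutant in light with methionine and 8.68 ± 0.811% in the mutant in light (SD, n = 3). In the WT they took 2.08 ± 0.12% in light with methionine and 7.76 ± 1.57% in light. In darkness the shares were 1.34 ± 0.0575% with methionine and 3.36 ± 0.281% without in the mutant, and 1.43 ± 0.0247% with methionine and 3.39 ± 0.293% without in the WT. A pair of models made up most of the difference between media. TrE0391W alone took 5.99 ± 0.952% of the counts of the mutant in light and 5.21 ± 1.85% of those of the WT in light. The hydrophobin gene hfb2 took 2.12 ± 0.289% in the mutant in darkness and 2 ± 0.28% in the WT in darkness. The remaining 102 members took between 1.25 and 2.03% on average in every group. A share falls when any other transcript becomes more abundant, so it is a relative measure.

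**Figure D1:**
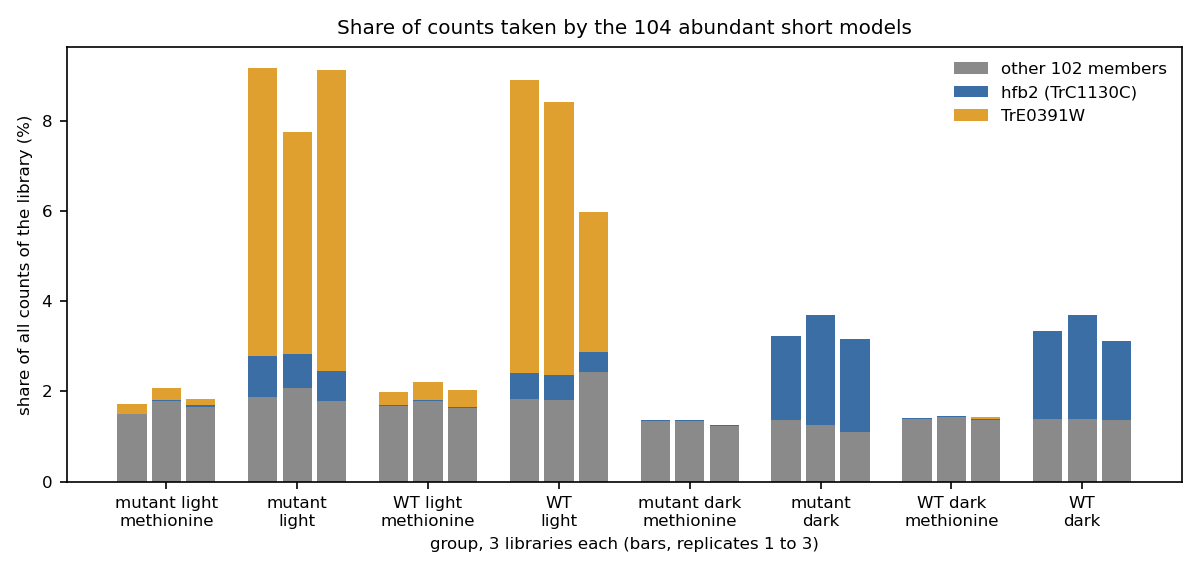
Share of all counts of a library (%) taken by the abundant short models, with 1 bar for each of the 3 libraries of the 8 groups; colours separate TrE0391W, hfb2 and the other 102 members. The tallest bars are those in light without methionine, where TrE0391W averaged 5.99% in the mutant and 5.21% in the WT, and hfb2 is the main coloured part in darkness without methionine.

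The members differed widely in how much their level varied. The ratio of the highest to the lowest group mean had a median of 2.82; it was under 2 for 34 members, between 2 and 10 for 39, and 10 or more for 31. Among the 34 steady members 26 (76.5%) were linked to a locus tag and 6 had a single exon, against 16 of 31 (51.6%) linked and 15 with a single exon among the most variable. The steadiest were TrF0636W, TrG0540C, TrE0364C, TrE1008W and TrG1053W. TrF0636W, with the smallest ratio (1.16), averaged 102 and 99.7 CPM in the mutant in light with and without methionine, 90.8 and 92.6 CPM in the mutant in darkness with and without methionine, and 87.6 CPM in the WT in darkness, its lowest group. TrE0364C was highest in the mutant in darkness (154 CPM) and lowest in the WT in light (131 CPM). No role is annotated for these 5 in the table used here. The largest ratios were those of TrE0391W (13672), TrC0951C (7734), TrD0140W (7648), TrD0147C (1402) and TrA1948C (327).

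**Figure D2:**
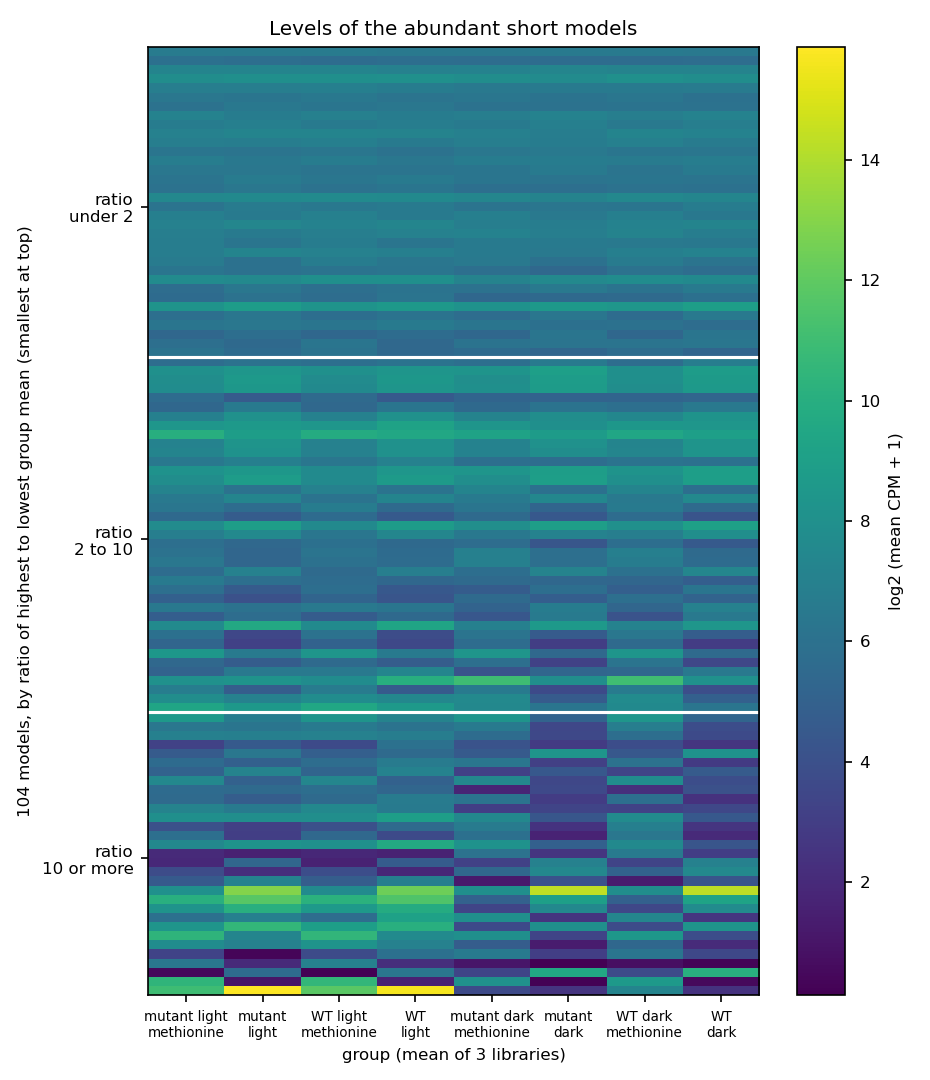
Level of each of the 104 members (rows, ordered by the ratio of highest to lowest group mean, smallest at the top) in the 8 groups (columns), as log2 of the mean CPM of 3 libraries plus 1; white lines separate ratios under 2 (34 members), 2 to 10 (39) and 10 or more (31). The upper block is nearly uniform along each row, while the lower block changes mainly between neighbouring columns that differ in methionine and between light and darkness.

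The hydrophobin gene hfb2 (TrC1130C, TRIREDRAFT_119989, 261 bases, 3 exons, unitig_2_consensus 3833116 to 3833518) encodes a small secreted surface protein known in *T. reesei* for its place on aerial hyphae and spores. In darkness it had 241, 258 and 237 CPM in the mutant with methionine, against 18604, 24300 and 20613 CPM in the mutant without. In darkness the WT had 234, 230.1 and 221 CPM with methionine, against 19401, 23114 and 17624 CPM without. The groups were far apart in both genotypes, and with methionine hfb2 had a log2 fold change of −6.69 (SE 0.43) in the mutant and −6.67 (SE 0.43) in the WT, with adjusted p = 1.77e-11 and 1.83e-11 (edgeR quasi-likelihood test, Benjamini-Hochberg adjustment over 9308 models, used for every adjusted p below; sizes of change are log2 fold changes throughout). The CPM values use plain library totals, while the fitted fold changes also use TMM factors, which set the typical model near no change. For methionine the 2 scales differ: with plain totals the median change over all models would be higher by 0.26 in the mutant in darkness, 0.22 in the WT in darkness, 0.17 in the mutant in light and 0.19 in the WT in light. Fitted values are thus lower than the ratios of the printed CPM by about these amounts, and changes with methionine are relative to the typical model. Where this choice of scale ends a call printed for a member, its value is given there.

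In light, hfb2 had 91.4, 209 and 467 CPM in the mutant with methionine, against 9148, 7697 and 6622 CPM without. In light the WT had 212, 245 and 154 CPM with methionine, against 5886, 5553 and 4441 CPM without. Its log2 fold change with methionine was −5.10 (SE 0.40) in the mutant and −4.89 (SE 0.40) in the WT, again with no overlap; leaving out replicate 3 of the mutant in light with methionine, the highest of its group, made the first value −5.90. Without methionine hfb2 was lower in light than in darkness, by 1.52 (SE 0.34) in the mutant and by 1.92 (SE 0.35) in the WT on the log2 scale (edgeR adjusted p = 0.000707 and 7.3e-05). With methionine the log2 difference between light and darkness was 0.08 (SE 0.34) in the mutant and −0.14 (SE 0.34) in the WT, neither past the adjusted p threshold of 0.05.

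A pair of related hydrophobin genes lies outside the selection. The model of hfb3 (TrG0087C, 309 bases) is longer than the limit by a few codons. It averaged 109 CPM with and 3458 CPM without methionine in the mutant in darkness, 111 and 3185 CPM in the WT in darkness, 72.9 and 1336 CPM in the mutant in light, and 60.6 and 956 CPM in the WT in light. The model of hfb1 (TrC1253C, 294 bases) is short enough but had group means of at most 0.171 CPM. The means of hfb2 and hfb3 were thus lower with methionine in all 4 settings, while hfb1 was near the limit of detection throughout. In bulk RNA of mycelium, fewer cells of a type and less RNA per cell cannot be told apart.

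Ribosomal proteins are the largest group of members with symbols: rps21, rps27, rps28, rps29 and rps30 of the small subunit and rpl38 and rpl39 of the large subunit. All 7 fell with methionine in all 4 comparisons. The median log2 fold change was −1.09 in the mutant in darkness, −1.03 in the WT in darkness, −1.11 in the mutant in light and −1.23 in the WT in light. The 32 ribosomal protein models longer than 300 bases also fell in all 4 comparisons, with medians of −1.12, −1.02, −1.26 and −1.22. With plain library totals all 7 were still called lower in each comparison, with medians of −0.83, −0.81, −0.94 and −1.04. The short members thus lay close to the rest of the ribosome, though with a wider spread.

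At one end of this spread was rps29 (TrD0743W, 297 bases). It had 56.7, 48.6 and 62.3 CPM in the mutant in darkness with methionine, against 143, 165 and 121 CPM without. The WT in darkness had 56.9, 59.3 and 69 CPM with methionine, against 173, 167 and 148 CPM without. No library with methionine reached the lowest without, and the log2 fold change was −1.61 (SE 0.21) in each genotype (edgeR adjusted p = 5.3e-07 in the mutant and 5.34e-07 in the WT). At the other end was rps30 (TrB1594C, 189 bases), which fell by 0.77 (SE 0.13) in darkness in both genotypes, by 0.77 in the mutant in light and by 0.53 (SE 0.13) in the WT in light. Its levels in the WT in light were 289, 284 and 313 CPM with methionine, against 397, 360.2 and 364 CPM without.

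The other 5 lay between these ends, among them rps27, whose model of 253 bases is not a multiple of 3 in length. In the mutant in darkness the log2 fold changes with methionine were −1.22 for rpl38, −1.16 for rpl39, −1.09 for rps27, −1.02 for rps28 and −0.90 for rps21. Without methionine, light moved these genes little. In the mutant 1 of 7 was called lower in light (rps27, −0.36, edgeR adjusted p = 0.00963), beside 30.6% of all tested models. In the WT 3 of 7 were called lower (rps27, rps29 and rps30), beside 32.2% of all tested models. Of the 32 longer ribosomal protein models 4 were lower in the mutant and 2 in the WT. The call of rps29 in the WT (−0.47) was lost without any of 5 single libraries, and that of rps27 (−0.33) without replicate 1 of the WT in darkness or replicate 3 of the WT in light. With methionine 0 of 7 were called lower in light in the mutant and 1 of 7 in the WT. Of the 32 longer models 11 were lower in the mutant and 19 in the WT, beside 21.7% and 20.9% of all tested models. Their medians were −0.20 and −0.31.

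**Figure D3:**
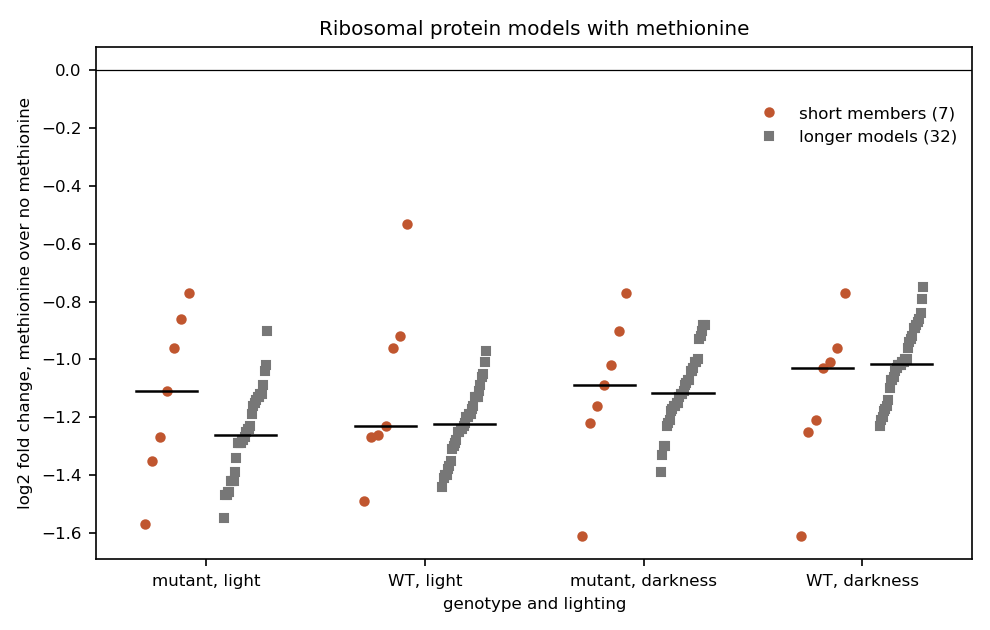
Log2 fold change with methionine of the 7 short ribosomal protein members (circles) and of the 32 longer ribosomal protein models (squares), in 4 comparisons of genotype and lighting; black lines are medians. All points lie below 0, the medians of the short members between −1.23 and −1.03, and rps29 at −1.61 in darkness and rps30 at −0.53 in the WT in light mark the ends.

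Of the remaining members with symbols, hh4.1 (TrF0574W, 265 bases) encodes histone H4, a core protein of chromatin. The length of its model is not a multiple of 3, so the model may not hold a whole coding sequence. It had 324, 284 and 363 CPM in the mutant in darkness with methionine, against 561, 489 and 356 CPM without, groups that overlap. In the WT in darkness it had 274, 289.9 and 312 CPM with methionine, against 534, 497 and 477 CPM without, with no overlap. It was called lower with methionine in all 4 comparisons, and fell by 0.79 in the mutant in darkness, 0.47 in the mutant in light and 0.95 in the WT in light; the call in the mutant in light was lost without replicate 1 of its methionine group, with a value of −0.32, and with plain library totals (−0.30).

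The model linked to cam1 (TrE0339W) has 147 bases, far shorter than a calmodulin coding sequence, so it may hold only a part of the gene for this calcium sensor. It fell with methionine by 0.99 (SE 0.09) in the mutant in darkness and 1.26 (SE 0.09) in the WT in darkness, and by 0.46 (SE 0.09) in light in each genotype. Levels in the WT in darkness were 53.9, 53.3 and 53.5 CPM with methionine, against 120.2, 94.7 and 116 CPM without. The effect in light minus that in darkness was 0.53 (SE 0.13) in the mutant and 0.80 (SE 0.13) in the WT (edgeR adjusted p = 0.00217 and 3.54e-05).

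The G-protein gamma subunit gene gbg1 (TrA1325C, 282 bases) encodes the small partner of the beta subunit in heterotrimeric G proteins, which couple receptors to signalling inside the cell. Its level varied little, with its highest means in the mutant in light with methionine and in the WT in darkness (112 CPM each) and its lowest in the WT in light (81.3 CPM). In the mutant in light it had 117, 108 and 112 CPM with methionine, against 85.7, 88.4 and 78 CPM without, a log2 difference of 0.25 (SE 0.08, edgeR adjusted p = 0.00863). In the WT in light the difference was 0.17 (SE 0.08) and did not pass the test (edgeR adjusted p = 0.0595), although with plain library totals it did (0.36, edgeR adjusted p = 0.000632). In darkness the difference had the opposite sign, −0.27 (SE 0.08) in the mutant and −0.35 (SE 0.08) in the WT, but with plain library totals it was −0.01 and −0.13 and neither call held (edgeR adjusted p = 0.878 and 0.157). The effect in light minus that in darkness was 0.52 (SE 0.11) in each genotype (edgeR adjusted p = 0.000766 in the mutant and 0.000631 in the WT). Without methionine gbg1 was lower in light than in darkness, by 0.43 in the mutant and 0.46 in the WT.

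The most abundant member, TrE0391W (180 bases, 2 exons, plus strand, unitig_4_consensus 1340183 to 1340574), has no linked locus tag. Without methionine it had 63757, 49009 and 66809 CPM in the mutant in light, against 8.52, 3.6 and 2.84 CPM in the mutant in darkness. In the WT it had 64822, 60516 and 30869 CPM in light, against 7.66, 3.91 and 1.56 CPM in darkness. The fitted log2 fold change of light over darkness was 13.48 (SE 1.38) in the mutant and 13.54 (SE 1.38) in the WT, given with no test because the model was selected on its level in light.

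TrE0391W fell with methionine in light, where all groups were well above the limit. The mutant had 2116, 2556 and 1438 CPM with methionine, against 63757, 49009 and 66809 CPM without, a log2 fold change of −5.06 (SE 0.98, edgeR adjusted p = 0.000109). The WT had 2927, 4001 and 3904 CPM with methionine, against 64822, 60516 and 30869 CPM without, a change of −4.04 (SE 0.93, edgeR adjusted p = 0.000726). No library with methionine overlapped those without. In darkness the model stayed low: the mutant with methionine had 12.5, 11.2 and 11.1 CPM and the WT with methionine 11.2, 11.4 and 422 CPM. Replicate 3 of the WT in darkness with methionine stood alone there, and the log2 fold change with methionine in the WT in darkness was 4.84 with it and 1.17 without it.

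TrC1160W, TrC1161W and TrC1162W (171, 261 and 162 bases) follow each other on the same strand and none has a linked locus tag. Their levels followed each other within about a factor of 2 over all libraries: TrC1161W had between 0.258 and 0.401 times the CPM of TrC1160W over the 24 libraries and TrC1162W between 0.272 and 0.557 times. Whether they are separate transcripts cannot be told from counts per model. TrC1160W had 1051, 1071 and 1031 CPM in the mutant in light with methionine, against 3727, 3429 and 3414 CPM without. In darkness the mutant had 28.1, 31.2 and 33.4 CPM with methionine, against 574, 549 and 419.6 CPM without. Neither pair of groups overlapped.

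In the WT, TrC1160W had 1003, 1407 and 1044 CPM in light with methionine, against 2872, 2832 and 3328 CPM without, and in darkness 27, 23.7 and 40.2 CPM with methionine, against 636, 596 and 598 CPM without. In light its log2 fold change with methionine was −1.92 (SE 0.15) in the mutant and −1.58 (SE 0.15) in the WT (edgeR adjusted p = 5.01e-10 and 9.42e-09). In darkness, where its group mean with methionine is under the limit, the values were −4.31 (SE 0.17) and −4.55 (SE 0.17). Light over darkness without methionine gave 2.70 (SE 0.15) in the mutant and 2.31 (SE 0.15) in the WT (edgeR adjusted p = 5.45e-12 and 4.79e-11). TrC1161W and TrC1162W moved the same way in each of these comparisons. TrC1162W fell by 2.38 in the mutant in light and by 1.31 in the WT in light. The difference between these (mutant minus WT) was −1.08 and was not called (edgeR adjusted p = 0.151). DESeq2 did call it (−1.05, DESeq2 adjusted p = 0.0161).

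Members that were high with methionine included TrC0951C (TRIREDRAFT_72137, 300 bases, a single exon). In light it had 1003, 1827 and 1306 CPM in the mutant with methionine, against 0.431, 2.25 and 0.449 CPM without. In the WT in light it had 1467, 1526 and 1439 CPM with methionine, against 0.428, 1.22 and 4.69 CPM without. In darkness it had 343, 259 and 211 CPM in the mutant with methionine, against 0.17, 0.221 and 0.181 CPM without, and 418, 418 and 305 CPM in the WT with methionine, against 0.511, 0.405 and 0.347 CPM without. The libraries without methionine held few counts, so the fitted log2 values of 9.33 to 10.24 carry SEs of 0.55 to 0.66 and are given with no test. With methionine it was higher in light than in darkness, by 2.35 (SE 0.38) in the mutant and 1.99 (SE 0.38) in the WT (edgeR adjusted p = 5.08e-05 and 0.000264).

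TrE0533C (TRIREDRAFT_73516, 210 bases) had 524, 2035 and 1377 CPM in the mutant in light with methionine, against 153, 161 and 160 CPM without. In the WT in light it had 1435, 1579 and 1234 CPM with methionine, against 129, 142 and 333 CPM without. It rose with methionine by 2.88 (SE 0.40) in the mutant in light and 2.62 (SE 0.39) in the WT in light (edgeR adjusted p = 1.76e-06 and 6.11e-06). Without the library that stands apart in each, replicate 1 of the mutant in light with methionine and replicate 3 of the WT in light, the values were 3.26 and 3.20. In darkness it averaged 249 CPM with and 9.27 CPM without methionine in the mutant, and 350.1 and 13.2 CPM in the WT. TrA0882C (TRIREDRAFT_110653, 192 bases) averaged 174 CPM with and 32 CPM without methionine in the mutant in light, 165 and 31.6 CPM in the WT in light, 180.3 and 10.2 CPM in the mutant in darkness, and 223 and 13.3 CPM in the WT in darkness. Its level with methionine was thus similar in light and darkness, while that of TrE0533C was higher in light. TrG0652C (186 bases) was high in light and rose further with methionine: it averaged 681 CPM with and 369 CPM without methionine in the mutant in light, and 179 and 74.9 CPM in the mutant in darkness. Its log2 fold change in the mutant in light was 0.72 (SE 0.24, edgeR adjusted p = 0.0131). That value was 1.01 without replicate 1 of its methionine group, the low library (374 CPM), and the call was lost without replicate 2 (0.52) or replicate 3 (0.55) of that group. In the WT in light TrG0652C averaged 740 CPM with and 387 CPM without methionine, a change of 0.74 (SE 0.24, edgeR adjusted p = 0.0115). It was 1.07 without replicate 3 of the WT in light, and the call was lost without replicate 1 (0.64) or replicate 2 (0.56) of that group.

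A smaller set was high in darkness without methionine. TrD0140W (TRIREDRAFT_123236, 288 bases, a single exon) had 10.2, 9.6 and 9.55 CPM in the mutant in darkness with methionine, against 1081, 733 and 442 CPM without. In darkness the WT had 13.8, 10 and 11.2 CPM with methionine, against 1179, 946 and 1121 CPM without. In light it had 0.471, 0.107 and 0.532 CPM in the mutant with methionine, against 21.7, 87.7 and 33.3 CPM without, and 0, 0.303 and 0.122 CPM in the WT with methionine, against 23, 22.6 and 195 CPM without. The lowest of these are under the level of 3 counts in a library. TrA1903C (291 bases) averaged 3.54 CPM in the mutant in light and 180.4 CPM in the mutant in darkness, and 2.74 and 182 CPM in the WT. TrB1868C (225 bases) averaged 82.2 and 317 CPM in the mutant in light and darkness, and 47.4 and 278 CPM in the WT. In darkness the means with methionine were lower for all 3: those of TrB1868C were 23.4 CPM with and 317 CPM without methionine in the mutant, and 21.2 and 278 CPM in the WT.

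TrA1814C (TRIREDRAFT_105533, 255 bases) showed opposite differences in the 2 lightings in the WT. In darkness it had 2096, 2078 and 2057 CPM in the WT with methionine, against 178, 458 and 188 CPM without, a log2 fold change of 2.70 (SE 0.58, edgeR adjusted p = 0.000272). In light it had 209, 189.8 and 255 CPM in the WT with methionine, against 425, 494 and 2118 CPM without, a change of −2.42 (SE 0.57, edgeR adjusted p = 0.000898), or −1.26 without replicate 3 of the WT in light. In the mutant it had 1961, 2150 and 1899 CPM in darkness with methionine, against 258, 239 and 212 CPM without, and rose by 2.83 (SE 0.58). In the mutant in light it had 310, 249 and 252 CPM with methionine, against 143, 613 and 117 CPM without. Those groups overlap, and the value of −0.26 did not pass the test (edgeR adjusted p = 0.678); without replicate 2 of the mutant in light it was 0.87.

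**Figure D4:**
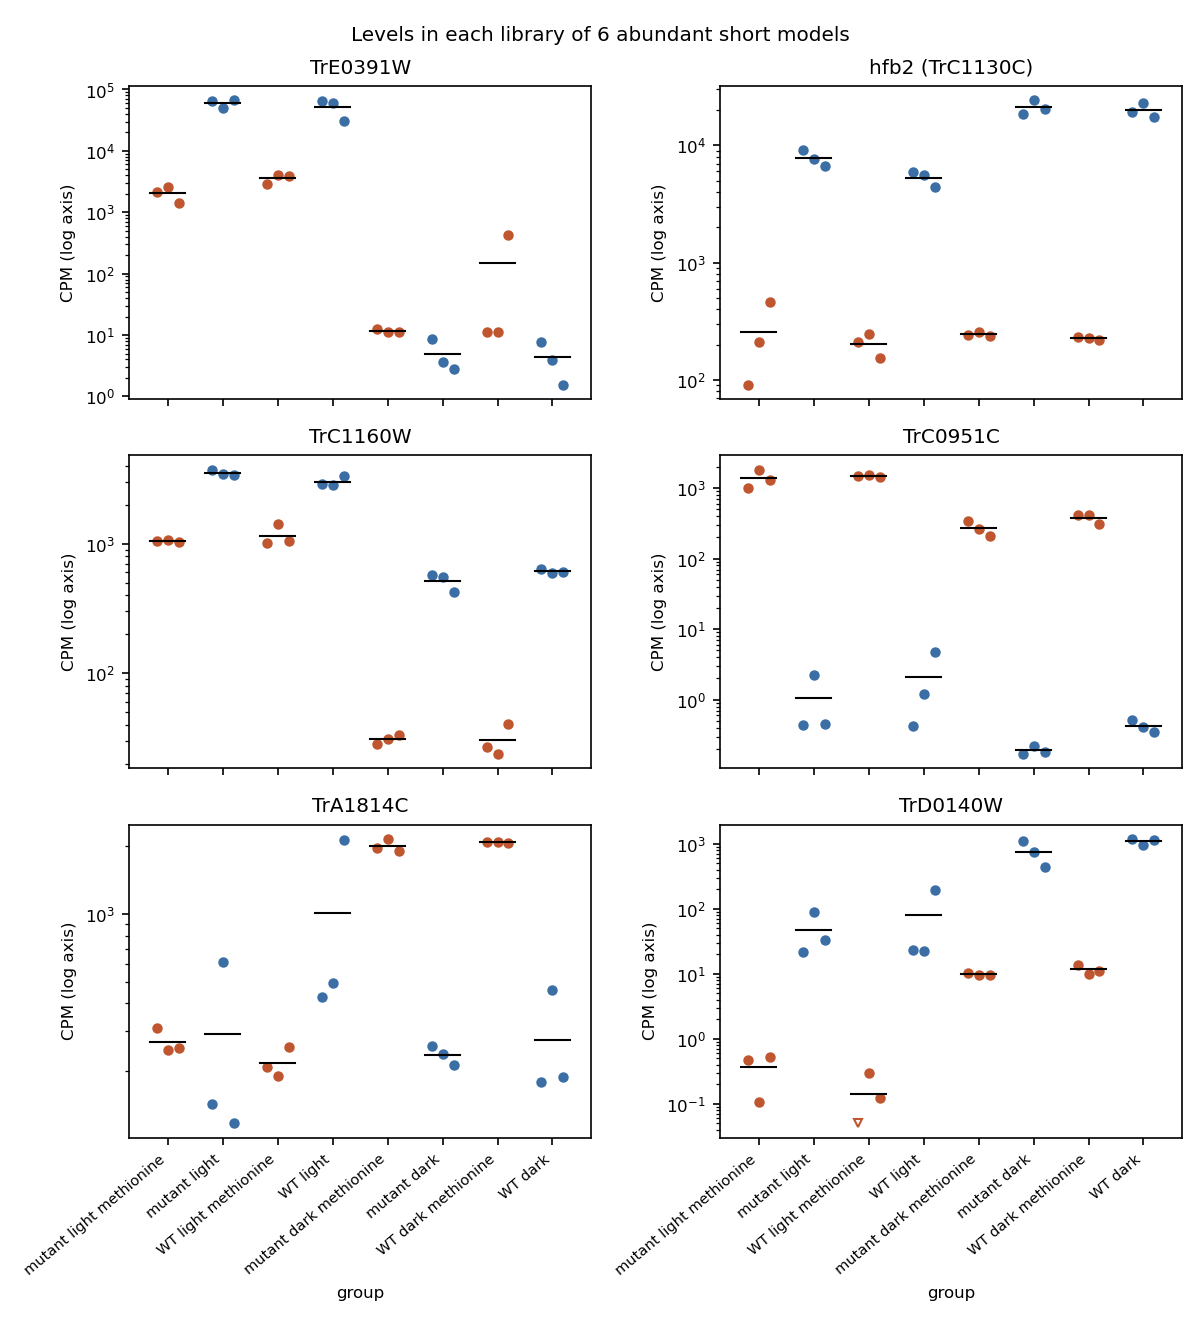
CPM on a log axis of 6 members in each of the 24 libraries, by group; red points are libraries with methionine, blue points those without, black lines group means, and the open triangle marks a library with 0 counts. TrE0391W is highest in the 4 groups in light, hfb2 in the 4 groups without methionine and TrC0951C in the 4 groups with methionine, and TrA1814C reaches 2118 CPM in 1 of 3 libraries of the WT in light.

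Counts over members were taken on the 84 whose mean over all 24 libraries is at least 50 CPM. The other 20 are described without a test. A mean over all libraries can still come from the groups where a member is high, as for TrE0391W, TrC0951C and TrB1382C. The counts over the 84 for methionine and lighting, here and in the paragraphs below, are therefore a description alone. All 104 passed the filter on low counts. With methionine in darkness, 19 of 84 rose and 43 fell in the mutant, against a background over all 9308 tested models of 39.6% higher and 37.7% lower. In the WT in darkness 22 rose and 41 fell (background 38.7% and 36.9%). In light 20 rose and 40 fell in the mutant (background 37.4% and 34.3%), and 16 rose and 41 fell in the WT (background 35.2% and 32.2%). The members' median log2 fold change was −0.27, −0.25, −0.30 and −0.33 in this order, beside 0.03, 0.03, 0.03 and 0.02 over all tested models. With plain library totals 25 rose and 32 fell in the mutant and 24 rose and 34 fell in the WT in darkness, and 23 rose and 34 fell in the mutant and 23 rose and 33 fell in the WT in light. The members' medians were then −0.02, −0.03, −0.13 and −0.14, beside 0.29, 0.24, 0.20 and 0.21 over all tested models. The background on this scale was 49.9% higher and 26.9% lower in the mutant and 47.6% and 28.3% in the WT in darkness, and 45% and 26.1% in the mutant and 44.8% and 21.9% in the WT in light. The members' median was below that of all models on both scales, while its distance from 0 in darkness depended on the scale. Among members with at least 50 CPM in both groups compared, 5 of 53 rose and 31 fell in the mutant in darkness, and 4 of 53 rose and 30 fell in the WT in darkness. In light, 12 of 69 rose and 34 fell in the mutant, and 8 of 70 rose and 35 fell in the WT. A limit in both groups takes out members that start or end at a low level. No share over all models was counted at this limit, so these counts are a description alone. Longer models with a mean of at least 50 CPM over all libraries, 3879 in number, had medians of −0.16, −0.13, −0.13 and −0.12. In the same order 49.3%, 47.1%, 46.7% and 45% of them were called lower, and 33%, 34.2%, 31.2% and 29.7% higher. The members' shares were 51.2%, 48.8%, 47.6% and 48.8% lower, and 22.6%, 26.2%, 23.8% and 19% higher. The share of falls among the members was thus near that of longer models at this level. The members' share of rises and their median were lower than those of the longer models in each comparison.

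Calls with methionine in the mutant and in the WT had the same direction, among the members as among all models. In darkness 19 members were called higher in both the mutant and the WT (background 35.9%), 39 were called lower in both (34.2%) and 0 had opposite calls (7 of all 9308 models). In light 16 were higher in both (31.7%), 36 lower in both (28.7%) and 0 opposite (2 of all models). Between lightings, 13 members were called higher in both darkness and light in the mutant (background 27.9%), 32 lower in both (26.3%), and 5 were lower in darkness and higher in light (3.49%). In the WT these counts were 12 (25.1%), 30 (23.2%) and 3 (3.96%), and 4 members were called higher in darkness and lower in light (2.92%). A total of 43 members (51.2%) passed the test in all 4 methionine comparisons, beside 48.6% of all models. TrC1010W (TRIREDRAFT_42752, 276 bases) is an example of a steady direction: it fell by 1.82 in the mutant and 1.56 in the WT in darkness, and by 2.17 in the mutant and 1.89 in the WT in light (SE 0.16 each). TrB0712W (189 bases), chosen after its values were seen, fell by 1.90 in the mutant and 1.93 in the WT in darkness, while its values in light, 0.21 and 0.08, did not pass the test.

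Between light and darkness without methionine, 34 of 84 members were higher in light and 19 lower in the mutant (background 31.8% and 30.6%), and 32 higher and 22 lower in the WT (background 32.5% and 32.2%). Of these, 26 were called higher and 16 lower in both genotypes (background 26.2% and 26.8%). With methionine, 18 were higher and 7 lower in the mutant (background 19% and 21.7%), and 16 higher and 10 lower in the WT (background 18.2% and 20.9%). With methionine, TrC1160W, TrC1161W and TrC1162W had log2 fold changes of light over darkness of 4.82 to 5.10 in the mutant and 5.26 to 5.34 in the WT, given with no test because their means in darkness are under the limit. Among members with at least 50 CPM in both groups compared, 16 of 58 were higher and 15 lower in light in the mutant, and 16 of 60 higher and 19 lower in the WT. With methionine these counts were 9 and 5 of 70 in the mutant and 9 and 8 of 71 in the WT. Here too no share over all models was counted at the limit in both groups. TrB1382C (TRIREDRAFT_64667, 216 bases) averaged 129 CPM in light and 1.56 CPM in darkness in the mutant, and 133 and 3.24 CPM in the WT. In the mutant with methionine 25 members were called in all, and 38 without replicate 1 of the light group.

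An effect of methionine that differed between light and darkness was called for 40.5% of the members in the mutant and 46.4% in the WT. Over all tested models the shares were 45.7% and 49.6%, and over longer models at the same mean level 50.7% and 56.4%. In the mutant the difference (light minus darkness, log2) was positive and past the threshold for 15 of 84 members and negative for 19 (background 22.4% and 23.3%); in the WT it was positive for 19 and negative for 20 (background 24.3% and 25.3%). TrE0391W had values of −6.03 (SE 1.31) in the mutant and −8.88 (SE 1.37) in the WT, the second −5.21 without replicate 3 of the WT in darkness with methionine. For TrC1160W, a smaller drop in light gave 2.40 (SE 0.21) in the mutant and 2.97 (SE 0.21) in the WT. For hfb2 the values were 1.60 (SE 0.48) in the mutant and 1.78 (SE 0.48) in the WT, that is, a smaller drop in light (edgeR adjusted p = 0.0105 and 0.00443). The value in the mutant depends on a spread group, with 91.4, 209 and 467 CPM in light with methionine. Without replicate 3 of that group the drop in light was larger, as given above, and so nearer to that in darkness. None of the 7 ribosomal protein members passed this test in either genotype, although with plain library totals rps21 did in the mutant (−0.46, edgeR adjusted p = 0.0345). Of the 32 longer ribosomal protein models, 3 (9.38%) in the mutant and 8 (25%) in the WT had a negative difference past the threshold. None had a positive one, and the medians were −0.15 and −0.23.

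The comparison with the deletion mutant asks whether the receptor gene is needed for these levels. In light with methionine 0 of 84 members were higher and 1 was lower in the mutant (background 0.301% and 0.043%). That 1 member is TrA1106C (237 bases, no linked locus tag). It had 57.3, 58.2 and 55.5 CPM in the mutant, against 69.6, 70.5 and 82.1 CPM in the WT, with no overlap, and a log2 fold change of −0.38 (SE 0.08, edgeR adjusted p = 0.032). The call was lost in 8 of the alternative fits, plain library totals among them, with values between −0.42 and −0.30. In light without methionine it was 0.01, in darkness with methionine 0.01 and in darkness without methionine −0.06.

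In the other 3 deletion comparisons edgeR called 0 members in either direction: in light (background 0.0537% higher and 0.0967% lower), in darkness with methionine (0.483% and 0.0537%) and in darkness (0.0322% and 0.172%). At an unadjusted p under 0.05 there were 11 of 84 in light with methionine (background 9.19%), 9 in light (14.5%), 6 in darkness with methionine (8.27%) and 13 in darkness (14.1%), close to the share over all models. DESeq2 called 2, 2, 1 and 2 members in the same order (background 1.21%, 2.96%, 1.28% and 1.54%); those in light were TrA1764W and TrE1217W, those in darkness TrD0632W and TrE0815C, that in darkness with methionine TrE0391W, and those in light with methionine TrA1106C and hh4.1. A single library carries some of these: without replicate 3 of the WT in light the edgeR value of TrE1217W was −0.14, against −0.68 with all libraries, and without replicate 3 of the WT in darkness with methionine that of TrE0391W was 0.05, against −3.62. Among members at the limit in both genotypes, the median ratio of mutant to WT was 0.99 in light with methionine, 1.04 in light, 0.94 in darkness with methionine and 0.932 in darkness. The difference in the effect of methionine between genotypes (mutant minus WT) was called for 0 members in light (background 0.0322% positive and 0% negative; unadjusted p under 0.05 for 15, background 13.4%; DESeq2 1, background 0.615%) and for 0 in darkness (background 0.043% and 0%; unadjusted 2, background 7.47%; DESeq2 0, background 0.33%).

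In light without methionine the deletion comparison depends on single libraries. In 9 members, replicate 2 of the mutant and replicate 3 of the WT were each more than 2-fold above both other libraries of their group: TrA1814C, TrB1083C, TrB1722C, TrD0140W, TrD0984W, TrE0464C, TrF0576W, TrF0577W and TrG0101C. TrG0101C (TRIREDRAFT_123962, 201 bases) had 39, 316 and 26 CPM in the mutant in light and 157, 160.4 and 1353 CPM in the WT in light. Of the remaining libraries, both of the mutant were below both of the WT in 8 of these 9 members, described here after their values were seen: TrA1814C, TrB1083C, TrB1722C, TrD0984W, TrE0464C, TrF0576W, TrF0577W and TrG0101C. No share over all models was counted for this. The 9 members were grouped by the same libraries, and few libraries remain, so this count is a description. An effect of the deletion on these members was not tested by it. A fit chosen after seeing the data left out both of these libraries and replicate 1 of the mutant in light with methionine. In light it gave mutant over WT values of −1.82 for TrA1814C, −1.32 for TrB1083C and −0.91 for TrA1764W. The libraries were picked by the spread of the members, TrA1814C and TrB1083C among them, so these values are given with no test. With all libraries the values were −1.85 for TrA1814C, −1.08 for TrB1083C and −0.66 for TrA1764W (edgeR adjusted p = 0.138, 0.173 and 0.153), and none was called. Without replicate 2 of the mutant in light alone they were −2.98, −1.77 and −1.02, each past the threshold. That library was picked by the same spread, so these values too are a description. TrA1814C also passed the threshold without replicate 1 or replicate 2 of the WT in light.

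The same pair of libraries also stood apart outside the members. TrD1440W, a longer model linked to TRIREDRAFT_82208, had 21.4, 72.5 and 31.8 CPM in the mutant in light and 21.8, 23.1 and 205 CPM in the WT in light, against 952, 677 and 570 CPM in the mutant in darkness and 1154, 808 and 1153 CPM in the WT in darkness. In both light groups its highest library was thus the one that stands apart among the members. The part of this difference in the results of the 9 members was not tested.

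**Figure D5:**
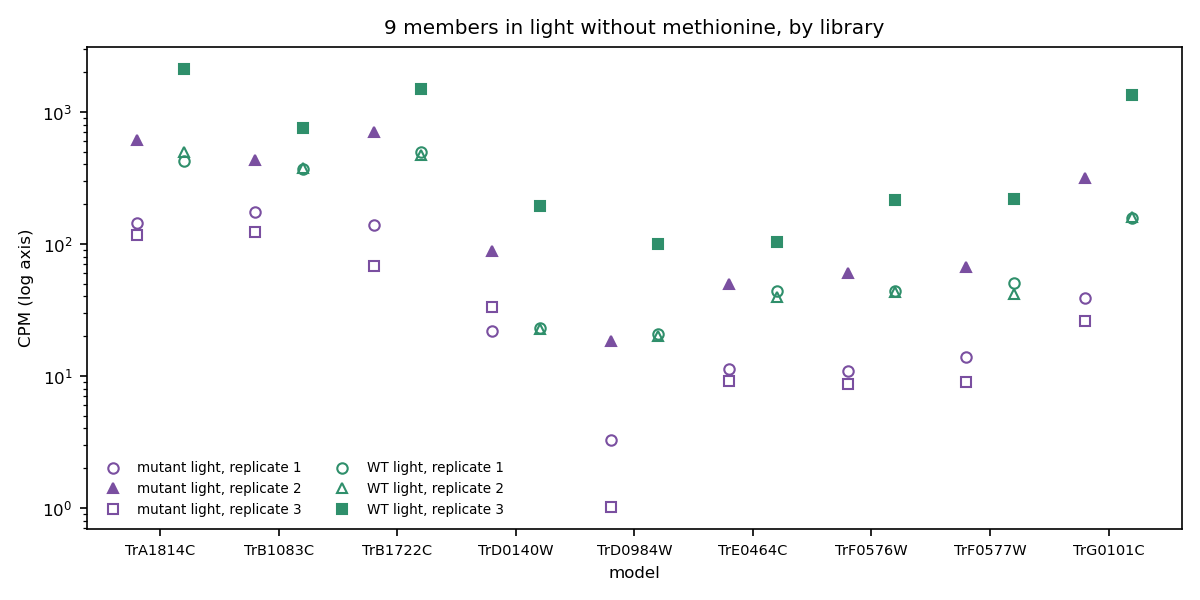
CPM on a log axis of the 9 members in which the same pair of libraries stands apart, in light without methionine; purple marks the 3 libraries of the mutant, green those of the WT, and filled symbols replicate 2 of the mutant and replicate 3 of the WT. The filled symbols are above the open ones of the same colour in all 9 models, for example 316 against 39 and 26 CPM for TrG0101C in the mutant.

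TrG0101C and TrB1722C (TRIREDRAFT_110879, 267 bases) varied between the libraries of other groups too. With methionine in darkness TrG0101C had 385, 338 and 30.2 CPM in the mutant and 224, 246 and 15.7 CPM in the WT, and TrB1722C had 483, 347 and 33.9 CPM in the mutant and 347, 208 and 32.2 CPM in the WT. In both genotypes the low library was replicate 3. In light with methionine TrG0101C had 159, 4.26 and 16.7 CPM in the mutant, but 55.9, 57.2 and 45.2 CPM in the WT. The neighbours TrF0576W and TrF0577W, on the same strand, shared these differences, with 94.4, 21.5 and 20.8 CPM and 97.4, 26.3 and 24.9 CPM in the mutant in light with methionine.

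The 20 members whose mean over all libraries is under 50 CPM reach the limit in 1 to 4 groups. For 7 of them the highest group is the WT in darkness with methionine and for 2 the mutant in that condition. TrE1263W (237 bases) averaged 64.6 CPM in the mutant and 95.1 CPM in the WT in darkness with methionine, and at most 7.16 CPM in each other group. TrD0147C (225 bases, 3 exons) averaged 80.5 CPM in the mutant and 134 CPM in the WT in light with methionine, and at most 3.70 CPM elsewhere. TrG0232W (297 bases) averaged 131 CPM in the mutant and 129 CPM in the WT in darkness, and TrE1298C (228 bases) 139.7 CPM in the mutant and 122 CPM in the WT in light. TrA1948C (282 bases) had 0.0958, 0.474 and 0.281 CPM in the mutant in light, and 0.589, 0.304 and 183 CPM in the WT in light, so its mean of 61.4 CPM there rests on 1 library.

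Over the 12 comparisons of methionine, lighting and genotype, 8 of the 84 members were called in none and 83 in no deletion comparison. Over all tested models 2.8% were called in none and 98.9% in no deletion comparison, so the share of members without a deletion call (98.8%) is that of models in general. The order of the 4 condition means was the same in the mutant and in the WT for TrE0391W, TrC0951C and TrD0140W, and differed between them for TrA1814C, TrG0101C and TrB1722C. In TrA1814C, TrG0101C and TrB1722C the means in light without methionine rest largely on replicate 3 of the WT and replicate 2 of the mutant. None of these models had a deletion call with all libraries, so their differing order is a description alone.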

How the data were processed

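RNA sequencing covered 24 libraries, and groups of 3 were assigned from the sample labels. The authors deposited a raw count of paired reads for each gene model. Per the file headers these counts come from featureCounts 2.0.1 with its options for pairs and reverse strand. HISAT2 2.2.1 is named in the submitters' processing notes. The genome build is not named, and coordinates are those of the count table. How near-identical copies were counted is not named either.

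Members were selected with the CPM and length limits above. The members and lists were chosen with earlier results of these data known. Tests used edgeR 4.0.16 under R 4.3.3 (quasi-likelihood test, 1 factor of 8 groups over all 24 libraries, TMM factors 0.877 to 1.114, the package's filter with a minimum count of 10, Benjamini-Hochberg threshold 0.05), after a check on simulated data. This left 9308 models, with a common coefficient of biological variation of 0.133. An adjusted p is given for a member only where every group compared averaged at least 50 CPM. CPM values use plain library totals, without these factors. DESeq2 1.42.0, size factors, plain totals (added after seeing the data), no filter, compared groups alone, a replicate block, single libraries left out and other selection limits were alternatives.

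Named members are the 10 with the highest group mean, the 5 largest and 5 smallest ratios of group means, all with a symbol, the 3 largest called log2 fold changes in each direction of a comparison (the smallest p for deletion comparisons) and those next to the limits. Other members that the text names, such as TrC1010W, TrG0652C, TrB0712W and the members of the low set of 20, were added after their values were seen.

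Same-numbered libraries were checked for pairing by the correlation of their residuals. In light the mean over 18 pairs was −0.06 (−0.43 to 0.2). In darkness it was 0.05 (−0.17 to 0.47), and all 3 pairs of the mutant and WT with methionine exceeded 0.1, so the numbers were taken to pair these 2 groups alone; the block gave the same count of 0 there.

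Gene symbols come from a RefSeq table of QM6a (assembly GCF_000167675.1) whose identifiers differ from the count table's. Models were linked by span and by the distances between neighbouring genes, for 8028 of 10879 models (73.8%); at most 1 link was made in each of 20 shuffled decoy tables. That table gives no products, so lists by function rest on symbols alone. No sequence of these models was used here.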

Additional observations from a re-analysis of the deposited data

Results flagged for a closer look

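The effect of methionine (log2 fold change, with over without) differed most between light and darkness for the following members, given as a difference of light minus darkness. Only TrA1814C in the WT averages at least 50 CPM in every group compared; the other values are a description with no test, because those members were selected through the groups in which they are high. In the mutant the largest positive values were those of TrA1903C (4.05), TrC1161W (2.53) and TrC1160W (2.40), and the largest negative ones those of TrG0101C (−6.76), TrE0391W (−6.03) and TrB1722C (−3.90). In the WT the largest positive values were those of TrA1903C (4.80), TrC1162W (3.59) and TrC1161W (3.16), and the largest negative ones those of TrE0391W (−8.88), TrG0101C (−8.46) and TrA1814C (−5.11).

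Single libraries move several of these. Without replicate 2 of the mutant in light TrB1722C had −2.37 and TrG0101C −4.84 in the mutant. Without replicate 1 of the mutant in light with methionine they had −5.53 and −9.29. Without replicate 3 of the WT in light TrG0101C had −6.63 and TrA1814C −3.96 in the WT, and without replicate 3 of the WT in darkness with methionine TrE0391W had −5.21.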

How the results depend on the processing

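Counting only those at 50 CPM or above in every group compared, of which there are fewer, 36 (mutant) and 34 (WT) members were called for methionine in darkness, 31 and 35 for light, 14 and 17 for light with methionine, and 11 and 15 for the difference in the effect of methionine between lightings. DESeq2 called 2 members for the deletion in light with methionine, 2 in light, 1 in darkness with methionine and 2 in darkness, and 1 for the difference in the effect of methionine between genotypes in light. Fitting the compared groups alone gave 0 for the deletion in light with methionine and 45 for light with methionine in the WT. With the replicate number as a block the count for the deletion in light with methionine was 0, and no other count moved by over 1.5 times. Leaving out single libraries gave 0 to 2 for the deletion in light with methionine, 0 to 3 in light and 0 to 1 in darkness with methionine, 24 to 38 for light with methionine in the mutant, and 0 to 1 for the difference between genotypes in light. With the 3 light libraries that stand apart left out, a setting chosen after seeing the data, the counts were 5 for the deletion in light with methionine, 3 in light, 41 for light with methionine in the mutant and 1 for the difference between genotypes in light. These libraries were picked by the members' own values and no share over all models is given, so these counts are a description alone. A length limit of 250 left 67 members. With a limit of 100 CPM the members' share of counts was 1.17% in the mutant and 1.26% in the WT in darkness with methionine, and 1.92% in the WT in light with methionine. Without TrE0391W the share was 1.67% with and 2.69% without methionine in the mutant in light, and 1.72% and 2.56% in the WT in light.

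Of the named members' values, 43 lost and 27 gained a call under an alternative, 2368 kept theirs, and no called value reversed its direction. Size factors in place of TMM moved the median of all models by at most 0.034 on the log2 scale. Plain library totals, chosen after seeing the data, moved it by up to 0.26 and gave 1 member (TrD0632W) for the deletion in darkness and 0 in light with methionine; no called member changed direction. With 3 libraries a group, low members near 3 counts in a library are the least precise. The level of 3 counts covers counting error only, while the SDs and SEs also take in the spread between libraries.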
